A study of Mus musculus with 12 samples.

Results

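Macrophages stimulated with LPS after pretreatment with 10 μM cpTLR-i, a peptide made to enter cells and inhibit TLR signaling, were compared with macrophages stimulated with LPS alone. The comparison was defined by the labelled treatment and not by any measured value, although earlier results of these data were known. It used 6 of the 12 libraries of the series, 3 with LPS and 3 with LPS and 10 μM peptide. The cells were bone marrow-derived macrophages (BMDMs) of mice with the genotype WT, grown from bone marrow over 7 days in medium with M-CSF at 20 ng/ml. Cells of both groups were labelled as collected at 2 h of LPS, and the methods of the study give 200 ng/ml LPS and a 1 h pretreatment for such cultures. The other 6 libraries were 3 untreated controls labelled 0 h and 3 with LPS and 1 μM peptide, and their levels are given only where they help to read a value. The methods of the study name only C57BL/6J mice, without tying them to these libraries by name. The number of the marrow donors behind these libraries was not given in the sources used here. It is not stated if replicate libraries stem from different animals or dishes, and a p-value here measures only the spread between these libraries. In bulk RNA, fewer cells of a kind and less RNA per cell cannot be told apart. No library with LPS and a control peptide lacking the inhibitor part was among the samples analysed here.

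LPS, a lipid of the outer membrane of Gram-negative bacteria, is recognised by TLR4 with MD-2 and CD14. TLR4 signals through separate adaptor pairs. The pair of TIRAP and MyD88 leads to NF-κB and the MAP kinases, and the pair of TRAM and TRIF leads to IRF3 and IFN-β. Secreted IFN-β then acts back on the macrophage through its receptor, JAK kinases and a transcription factor complex with IRF9, which binds the interferon-stimulated response element (ISRE) in promoters of interferon-stimulated genes (ISGs). The peptide joins a short segment of TIRAP to a cell-penetrating sequence.

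Values are FPKM, fragments scaled to transcript length and to the mapped fragments of the library, and log2 fold changes were taken between group means of log2(FPKM + 0.25), which understates the change of genes with low FPKM. The call of a gene required a limma adjusted p (Benjamini-Hochberg) under 0.05 together with a change past 1.5-fold. Of 12315 tested genes, 2649 (21.5%) were higher and 1163 (9.44%) lower in the peptide libraries, and 8503 were not called. The median of all tested genes stood at 0.22 on the log2 scale, so a gene at 0 was below the middle of the distribution. Rescaling each library by its median ratio brought this median to -0.004 and gave 1618 higher and 1532 lower genes, and quantile normalization gave 1640 and 1432. The share of called genes that were higher was therefore 69.5% as deposited, 51.4% after median-ratio scaling and 53.4% after quantile normalization. No gene called in one direction was called in the other under either scaling.

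**Figure D1:**
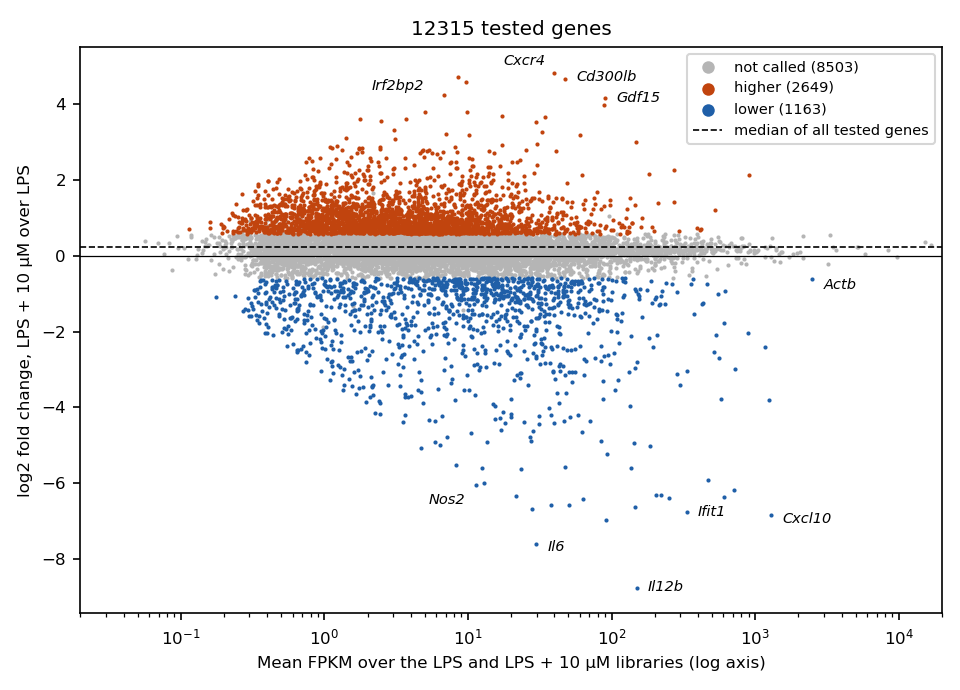
Each point is 1 of 12315 tested genes, with its mean FPKM over the 6 libraries on a log axis and its log2 fold change on the other axis, and the dashed line marks the median of 0.22. The lower genes reach -8.76 (Il12b) and many lie at high FPKM, while the higher genes reach 4.83 (Cxcr4) and crowd at low FPKM.

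The higher genes were more numerous, and the lower genes changed further. Past 4-fold there were 138 higher and 307 lower genes, past 8-fold 23 and 141, and past 32-fold 0 and 28. The median log2 fold change was 0.89 among the higher genes and -1.25 among the lower genes. The FPKM of the lower genes summed to 66158.6 to 69106.6 in the LPS libraries and to 19718 to 20002.8 with 10 μM peptide. The higher genes summed to 16752.3 to 16895.5 FPKM with LPS and to 35316.4 to 36181.2 FPKM with peptide. Their calls lay mostly among genes of low level. In the band of 1 to 3 FPKM 33.7% of genes were higher, and above 300 FPKM 2.66% were higher, while the share of lower genes ranged from 6.88% to 13.9% over the bands.

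The 3 libraries of a group lay close together. Levels written below as going from one FPKM to another are the means of the 3 LPS and the 3 peptide libraries, in that order, and over the 281 called genes picked by the naming rule the SE of the log2 fold change was 0.025 to 0.44, with a median of 0.082 and a highest limma adjusted p of 1.7e-02. Pearson's r of log2 values was 0.995 to 0.997 within the groups and 0.925 to 0.930 between them. In 2626 of the 2649 higher genes and 1156 of the 1163 lower genes no library of one group overlapped the other. The call itself favours such separation, and its share over all tested genes was not counted. B2m, which was not called at a log2 fold change of -0.17, also had groups that did not overlap. The median coefficient of variation was 4.67% among the LPS libraries and 6.27% among the peptide libraries. Peptide library 1 had the lowest of the 3 values in 1619 of the higher genes, and library 3 had the highest in 1489. Leaving out peptide library 1 gave 2823 higher genes and leaving out library 3 gave 2514.

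The libraries carried the markers of macrophages. Lyz2, lysozyme, was at 9718, 9891 and 9876 FPKM with LPS and 9609, 9508 and 9760 FPKM with peptide. Of 8 markers (Lyz2, Csf1r, Adgre1, Cd68, Spi1, Itgam, Fcgr1 and Mertk) only Fcgr1, the high-affinity IgG receptor, was called, falling from 25.5 to 16.6 FPKM. Most markers of other cells were near 0 or not called. The 16 neutrophil markers in the table summed to 101.3 to 103.3 FPKM with LPS and 97.5 to 104.4 FPKM with peptide, and Ly6g was at a mean of 0.023 and 0 FPKM. Of 11 tested members 3 were higher (27.3%, against 21.5% of all tested genes) and 1 was lower (9.09%, against 9.44%). The higher members were the granule genes Elane, Mpo and Prtn3, which rose together at low FPKM, and the lower was Lcn2. Mpo read 0.4486, 0.4171 and 0.4044 FPKM with LPS and 0.9945, 1.085 and 1.082 FPKM with peptide. The calls of Elane, Mpo and Prtn3 were lost with a pseudocount of 1. The 16 T and NK cell markers summed to 2.8 to 2.9 and 2.3 to 2.5 FPKM, 9 B cell markers to 88.2 to 95.5 and 76.4 to 87.1, mostly Blnk, and 13 dendritic cell markers to 143.5 to 162.1 and 126.7 to 131.4, mostly Bst2. The 12 mast cell, basophil and eosinophil markers summed to 10.1 to 10.5 FPKM with LPS and 5.5 to 6.4 FPKM with peptide. Of 5 tested members 2 were higher (40%, against 21.5%) and 2 lower (40%, against 9.44%). Hdc, the histamine-forming enzyme that macrophages also express, went from 4.17 to 0.171 FPKM, and Ccr3 was also lower. Kit and Siglecf were higher, Kit at 0.8195, 0.8039 and 0.6856 FPKM with LPS and 1.437, 1.502 and 1.388 FPKM with peptide. The calls of Kit and Siglecf were lost after median-ratio scaling. Tpsab1 and Fcer1a were at 0 in all 6 libraries. The 13 stromal and endothelial markers summed to 2.0 to 2.3 and 1.7 to 1.8 FPKM, and of 9 erythroid and megakaryocyte markers Pf4, also made by macrophages, held nearly the whole sum. The part of these markers in the results was not tested.

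The gene lists were written with earlier results of these data known, so their shares describe the listed genes and are not independent support. Among the 41 gene lists examined, the ISGs had the largest median change and the largest share of members called in 1 direction. Of 90 tested genes of a list of 93 ISGs, 88 (97.8%) fell, none rose and 2 were not called, against 9.44% lower over all tested genes. Their median log2 fold change was -3.00, against 0.22 for all genes, and 88 or 89 were lower after either rescaling. Their FPKM summed to 11970.5 to 13030.1 with LPS, 1422.0 to 1480.8 with peptide and 997.2 to 1130.9 in the untreated controls. The 2 members that were not called were Bst2, tetherin, going from 119.8 to 96.1 FPKM, and Lgals3bp, a secreted glycoprotein, with a log2 fold change of -0.38.

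Ifit1 encodes a protein that binds viral RNA lacking a methylated cap. It was at 630.1, 667 and 680.2 FPKM in the 3 LPS libraries and at 6.25, 5.24 and 5.93 FPKM in the 3 peptide libraries, a log2 fold change of -6.77 ± 0.11 (SE) with a limma adjusted p of 1.7e-14. The groups did not overlap, and the untreated controls were at 2.40, 2.21 and 3.33 FPKM. Rsad2, the antiviral radical enzyme viperin, read 1311, 1428 and 1463 FPKM with LPS and 20.1, 18.2 and 18.8 FPKM with peptide. Its change was 72.7-fold (-6.18 ± 0.099 (SE) on the log2 scale, limma adjusted p 1.7e-14). Isg15, a ubiquitin-like modifier, read 357, 366 and 364 FPKM with LPS and 11.7, 10.6 and 10.2 FPKM with peptide, and its 3 peptide libraries were all far under its 3 LPS libraries. Cxcl10, a chemokine that attracts CXCR3-bearing T cells, had the highest FPKM of all ISGs with LPS, at 2483, 2562 and 2657, and 26.1, 20.5 and 19.9 FPKM with peptide. Usp18, the protease that removes ISG15 from proteins, fell from 59.7 to 2.98 FPKM.

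The promoters of 4 of these ISGs are shown because the ISRE is the promoter element of the interferon pathway. Beside them are those of Il6, among the furthest fallen genes, and Cxcr4, the gene with the highest log2 fold change. Each is the 250 bases before the RefSeq start in GRCm38.p6, 5′ to 3′ on the gene's strand, with matches in capitals to a core of the ISRE (GAAANNGAA) and a core of NF-κB sites (GGNNNTTCC), searched on both strands and allowed to overlap.
Ifit1 (chr19:34640639-34640888, plus strand): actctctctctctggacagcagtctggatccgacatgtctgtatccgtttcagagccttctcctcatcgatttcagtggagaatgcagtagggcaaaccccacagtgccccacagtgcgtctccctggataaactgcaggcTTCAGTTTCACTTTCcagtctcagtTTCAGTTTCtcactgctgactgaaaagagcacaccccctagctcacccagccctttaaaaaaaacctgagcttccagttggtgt
Isg15 (chr4:156200819-156201068, minus strand): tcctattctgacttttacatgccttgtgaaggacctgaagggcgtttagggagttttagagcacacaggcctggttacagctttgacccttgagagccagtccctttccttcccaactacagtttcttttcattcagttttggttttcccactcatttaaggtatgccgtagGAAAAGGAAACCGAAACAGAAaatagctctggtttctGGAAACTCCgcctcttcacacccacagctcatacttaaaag
Rsad2 (chr12:26456453-26456702, minus strand): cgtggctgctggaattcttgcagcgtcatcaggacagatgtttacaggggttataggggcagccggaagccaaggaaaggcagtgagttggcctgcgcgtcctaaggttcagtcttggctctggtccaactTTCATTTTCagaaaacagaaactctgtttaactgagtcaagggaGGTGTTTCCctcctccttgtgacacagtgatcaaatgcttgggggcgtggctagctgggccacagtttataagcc
Cxcl10 (chr5:92348890-92349139, minus strand): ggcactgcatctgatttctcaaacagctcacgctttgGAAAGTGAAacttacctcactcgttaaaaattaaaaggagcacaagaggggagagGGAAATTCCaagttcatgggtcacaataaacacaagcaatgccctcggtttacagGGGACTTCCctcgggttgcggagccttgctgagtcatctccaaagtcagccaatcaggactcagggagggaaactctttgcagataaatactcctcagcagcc
Il6 (chr5:30012864-30013113, plus strand): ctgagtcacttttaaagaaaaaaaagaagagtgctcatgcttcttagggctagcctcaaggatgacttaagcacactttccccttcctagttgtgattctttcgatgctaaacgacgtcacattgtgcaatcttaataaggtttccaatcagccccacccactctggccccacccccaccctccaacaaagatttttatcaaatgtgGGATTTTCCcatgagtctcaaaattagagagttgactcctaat
Cxcr4 (chr1:128592300-128592549, minus strand): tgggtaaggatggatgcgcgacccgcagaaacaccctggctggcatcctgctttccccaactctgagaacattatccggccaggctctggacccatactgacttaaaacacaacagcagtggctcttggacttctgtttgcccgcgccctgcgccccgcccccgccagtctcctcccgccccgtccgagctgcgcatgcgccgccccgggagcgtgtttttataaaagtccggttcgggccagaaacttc

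The ISRE core matched 3 times in the Ifit1 stretch and 3 times, in overlapping copies, in the Isg15 stretch. Rsad2 and Cxcl10 held 1 match each, on the minus and plus strand. The NF-κB core matched in Isg15, Rsad2, Cxcl10 and Il6, where it lay 43 to 35 bases before the start. Neither core matched in the Cxcr4 stretch, which says only that these letters are not in this window. Over 32851 promoters of 300 bases in the RefSeq table, 250 before to 50 after each start, the ISRE core was found in 8.56% and the NF-κB core in 18.5%. A count over the whole set of fallen ISGs would be void, since only 70 of the 88 had a promoter in that table. A match describes letters and not a bound site.

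The families of ISGs differed in how far they fell. Mx1 and Mx2, relatives of the antiviral myxovirus resistance GTPases that the deposited annotation classes as transcribed pseudogenes, fell from 287 to 2.64 FPKM and 99.8 to 0.809 FPKM. Among the guanylate-binding proteins, which attack vacuoles that hold microbes, Gbp5 fell from 401 to 4.79 FPKM and Gbp2 from 162 to 11.6 FPKM. Oasl1, a relative of the oligoadenylate synthetases that restrains Irf7 translation in mice, fell from 126 to 1.23 FPKM, while the synthetases Oas1a and Oas3 fell from 55.4 to 21.3 FPKM and 29.2 to 15.98 FPKM. Slfn2, a member of the Schlafen family, remained among the most abundant ISGs, although it fell from 738 to 366 FPKM, and Ifi207 fell from 215 to 97.2 FPKM. The RNA sensors Ifih1 (MDA5) and Ddx58 (RIG-I) fell from 119 to 4.55 FPKM and 33.7 to 5.25 FPKM. Cmpk2, a mitochondrial nucleotide kinase next to Rsad2, fell from 494 to 5.69 FPKM.

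**Figure D2:**
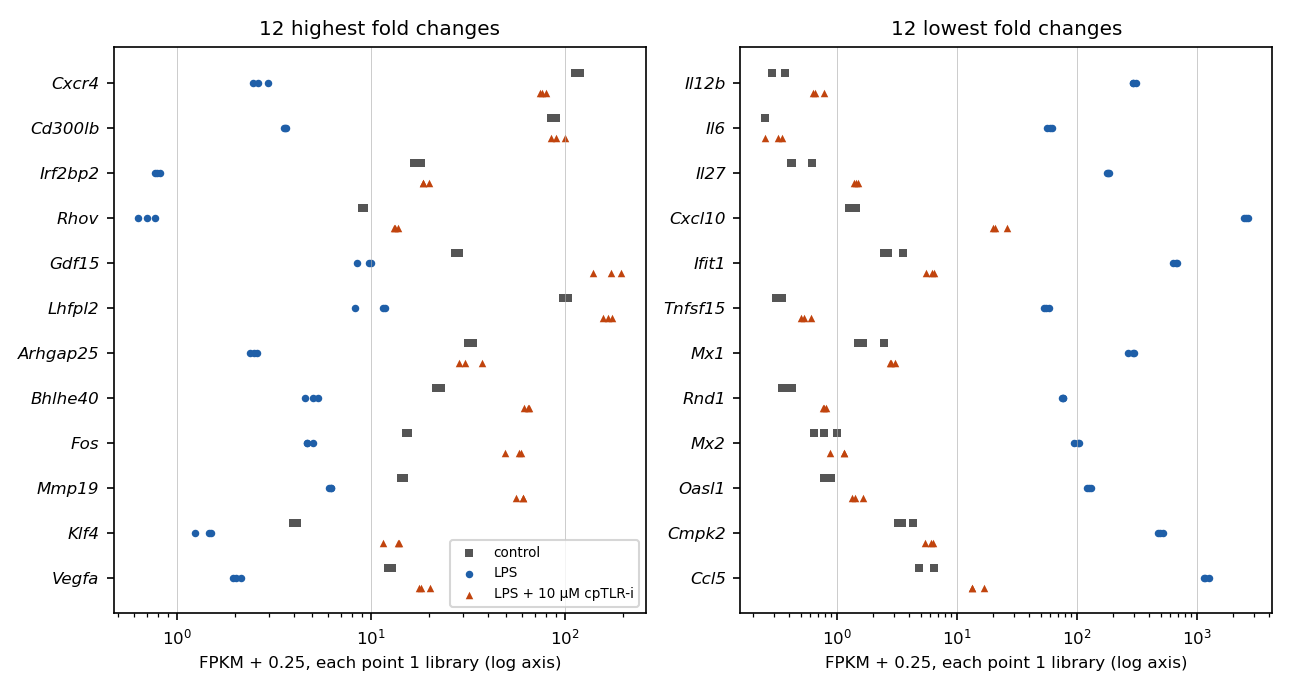
Each point is the FPKM plus 0.25 of 1 library on a log axis, for the 12 genes with the highest and the 12 with the lowest log2 fold change among called genes of at least 10 FPKM with groups that do not overlap, in untreated control, LPS and LPS with 10 μM cpTLR-i. In all 24 genes the 3 peptide libraries lie apart from the 3 LPS libraries, as the choice of genes required.

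Interferon itself and parts of its signaling chain were lower too. Ifnb1 encodes IFN-β. It read 20.8, 23.8 and 22.9 FPKM with LPS and 0.0388, 0.0851 and 0.163 FPKM with peptide, a log2 fold change of -6.05 ± 0.11 (SE) (limma adjusted p 3.4e-14), and the 3 peptide values were all near 0. Of 32 tested genes of interferon production and signaling, 13 fell (40.6%, against 9.44%) and 6 rose (18.8%, near the 21.5% of all tested genes), with a median of -0.45. Irf1, a transcription factor induced by NF-κB, fell from 511 to 58.6 FPKM, Irf7, the amplifier of type I interferon, from 70.3 to 8.26 FPKM, and Stat2 from 56.1 to 7.57 FPKM. The kinase Jak2 fell from 80.9 to 10.5 FPKM and the cytosolic DNA sensor Cgas from 10.8 to 3.05 FPKM. The members that rose were led by 2 corepressors of the IRF2BP family. Irf2bp2, which binds IRF2, was at 0.523, 0.537 and 0.566 FPKM with LPS and 18.3, 18.4 and 19.6 FPKM with peptide, a change of 24.0-fold (4.59 ± 0.094 (SE) on the log2 scale, limma adjusted p 1.2e-13). Its paralog Irf2bpl rose from 3.28 to 14.9 FPKM, and Traf3, an adaptor on the way to IRF3, from 6.62 to 14.8 FPKM.

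Lower genes lay next to each other on the chromosomes. In 25 places 4 or more adjacent tested genes within 1 Mb were all lower, 147 genes in all. The longest run held 15 genes from Aim2 to Ifi205, at chr1:173349547-174031755 in GRCm38, with a median log2 fold change of -2.71. Aim2 is a sensor of cytosolic DNA, and its neighbours are the Ifi200 family. A run of 11 genes at chr7:104218795-104507853 held Trim6, Trim5, the Trim12 and Trim34 copies and Trim30a, Trim30c and Trim30d, with a median of -2.01. A run of 9 at chr11:48865245-49096987 held the immunity-related GTPases Irgm1, Tgtp1, Tgtp2 and Ifi47, with a median of -3.54. A run of 9 at chr1:85088139-85736656 held the nuclear body genes Sp100, Sp110 and Sp140, with a median of -2.12, and another of 9 at chr7:105823257-106644646 held Gvin1 and its copies, with a median of -3.09. Many of these neighbours are near-identical copies, and how reads were shared among copies was not tested. Higher genes formed 55 such runs of 253 genes, of which none exceeded 7 genes.

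**Figure D3:**
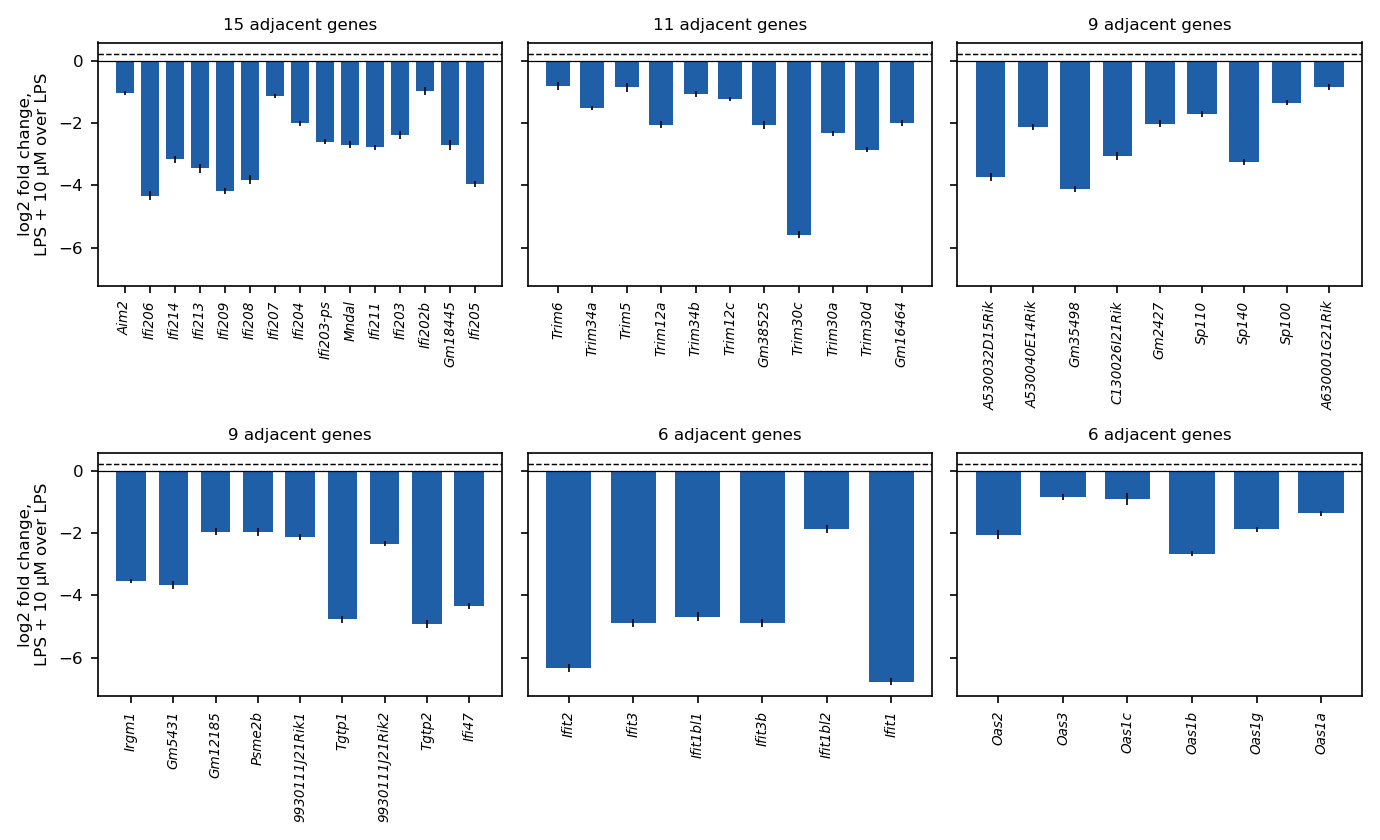
Bars give the log2 fold change of each gene in 6 runs of adjacent lower genes, in chromosomal order, with the standard error of the limma fit, and the dashed line marks the median of all tested genes at 0.22. Every bar points down, Ifit1 and Ifit2 furthest and Ifi202b, Oas1c and Oas3 among the least.

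The TRIM family divided by member. Of 40 tested TRIM genes, 17 rose (42.5%, against 21.5%) and 15 fell (37.5%, against 9.44%), and the median was 0.47. The fallen members were led by Trim30c, from 24.8 to 0.270 FPKM, Trim21, a cytosolic antibody receptor, from 47.7 to 4.28 FPKM, and Trim30d, from 20.4 to 2.59 FPKM. Trim25, the ubiquitin ligase of RIG-I, fell from 73.5 to 43.5 FPKM. The risen members were of small change, led by Trim65, from 0.429 to 1.59 FPKM, and Trim16, from 1.01 to 2.86 FPKM, and included Trim28, the corepressor KAP1, from 14.3 to 24.2 FPKM. After median-ratio scaling 8 TRIM genes were higher and 15 lower, and 11 and 15 after quantile normalization.

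Genes known as inhibitors of TLR signaling fell more often than they rose. Of 40 tested feedback inhibitors 17 fell (42.5%, against 9.44%) and 8 rose (20%, against 21.5%), with a median of -0.42. Socs1, a blocker of JAK kinases, read 51.4, 39.0 and 51.5 FPKM with LPS and 2.14, 1.89 and 1.94 FPKM with peptide. The groups were far apart, with a log2 fold change of -4.40 ± 0.15 (SE) (limma adjusted p 1.6e-11). Cish, of the same SOCS family, fell from 38.2 to 1.75 FPKM and Socs3 from 260.3 to 33.1 FPKM. The ubiquitin editor A20, encoded by Tnfaip3, fell from 334 to 78.8 FPKM, and IκBα, encoded by Nfkbia, from 611 to 256 FPKM, which left both at substantial levels. Among the risen members, Zfp36l2, an mRNA decay factor, rose from 6.42 to 37.1 FPKM, below its control mean of 69.5 FPKM, and the MAP kinase phosphatase genes Dusp4 and Dusp1 from 10.2 to 47.4 FPKM and 49.8 to 119 FPKM.

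Among 29 tested genes of the inflammasome and pyroptosis 10 fell (34.5%, against 9.44%) and 3 rose (10.3%, against 21.5%). The cytokine genes Il1b and Il1a fell furthest. Il1b read 929, 915 and 937 FPKM with LPS and 17.2, 15.6 and 12.9 FPKM with peptide, a 60.4-fold change (-5.92 ± 0.14 (SE) on the log2 scale, limma adjusted p 5.7e-13). Il1a fell from 268 to 5.25 FPKM and Il18 from 10.3 to 3.81 FPKM. The sensor Nlrp3 fell from 111 to 63.1 FPKM, the adaptor-binding Mefv, pyrin, from 10.8 to 2.77 FPKM, and the proteases Casp1 and Casp4 from 67.9 to 42.9 FPKM and 66.1 to 31.6 FPKM. The median of the list was 0.05, and -0.19 after median-ratio scaling.

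Enzymes that make nitric oxide, prostaglandins and itaconate fell more often than they rose. Of 34 tested genes 10 fell (29.4%, against 9.44%) and 3 rose (8.82%, against 21.5%). Nos2, the inducible nitric oxide synthase, read 40.5, 42.6 and 44.6 FPKM with LPS and 0.355, 0.205 and 0.286 FPKM with peptide, a log2 fold change of -6.34 ± 0.093 (SE) (limma adjusted p 7.9e-15), and the untreated controls were at 0.0694, 0.0201 and 0.0447 FPKM. Slc7a2, which imports the arginine that Nos2 uses, fell from 17.4 to 1.26 FPKM. Acod1, the enzyme that makes itaconate from a citrate cycle intermediate, fell from 976 to 149 FPKM and so stayed abundant. Ch25h, cholesterol 25-hydroxylase, fell from 5.24 to 0.271 FPKM. The 3 that rose, Odc1, Azin1 and Srm, all belong to polyamine synthesis, in which Odc1 makes the first product and Azin1 keeps Odc1 from being degraded, and Odc1 went from 40.9 to 71.5 FPKM.

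Of 37 tested genes of antigen presentation and costimulation 21 fell (56.8%, against 9.44%) and 2 rose, with a median of -0.72. Vcam1 and Icam1, adhesion molecules, fell from 32.6 to 1.12 FPKM and 883 to 152 FPKM. Tnfsf4, the ligand OX40L, fell from 59.5 to 2.50 FPKM, Tnfsf9, the ligand 4-1BBL, from 159.5 to 15.97 FPKM, and Cd274, the inhibitory ligand PD-L1, from 223 to 51.5 FPKM. Tap1, which carries peptides to MHC class I, fell from 58.4 to 10.7 FPKM, and the class II transactivator Ciita from 3.74 to 1.45 FPKM. The costimulatory ligands Cd80 and Cd86 moved in opposite directions. Cd80 fell from 23.8 to 12.3 FPKM, and Cd86 rose from 4.59 to 9.82 FPKM, with 4.32, 4.78 and 4.68 FPKM in the LPS libraries and 9.45, 9.44 and 10.6 FPKM in the peptide libraries, which did not overlap.

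Receptors changed in both directions. Of 60 tested pattern recognition and phagocytic receptors 17 fell (28.3%, against 9.44%) and 6 rose (10%, against 21.5%). Of 44 tested receptors for chemoattractants and lipid mediators 16 fell (36.4%) and 10 rose (22.7%, near the share of all genes). Cd14, the coreceptor of LPS, fell from 598 to 249.8 FPKM. The endosomal receptor Tlr3 fell from 5.83 to 1.18 FPKM, and the formyl peptide receptors Fpr1 and Fpr2 from 4.86 to 0.527 FPKM and 7.66 to 0.361 FPKM. Adora2a, an adenosine receptor, fell from 28.1 to 1.63 FPKM. Cxcr4, the receptor of CXCL12, had the highest log2 fold change of the whole comparison, a rank that depends on the added 0.25 FPKM. It read 2.70, 2.23 and 2.39 FPKM with LPS and 75.7, 79.3 and 74.0 FPKM with peptide. Its log2 fold change was 4.83 ± 0.057 (SE) (limma adjusted p 1.5e-15), and the untreated controls, at 119, 113 and 115 FPKM, were above both. Cd300lb, an activating receptor of the CD300 family, read 3.35, 3.42 and 3.30 FPKM with LPS, 84.8, 90.1 and 99.9 FPKM with peptide and 89.0, 84.3 and 89.8 FPKM in the controls, and the peptide and control libraries overlapped. Lpar6, a receptor of lysophosphatidic acid, rose from 0.394 to 4.50 FPKM.

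**Figure D4:**
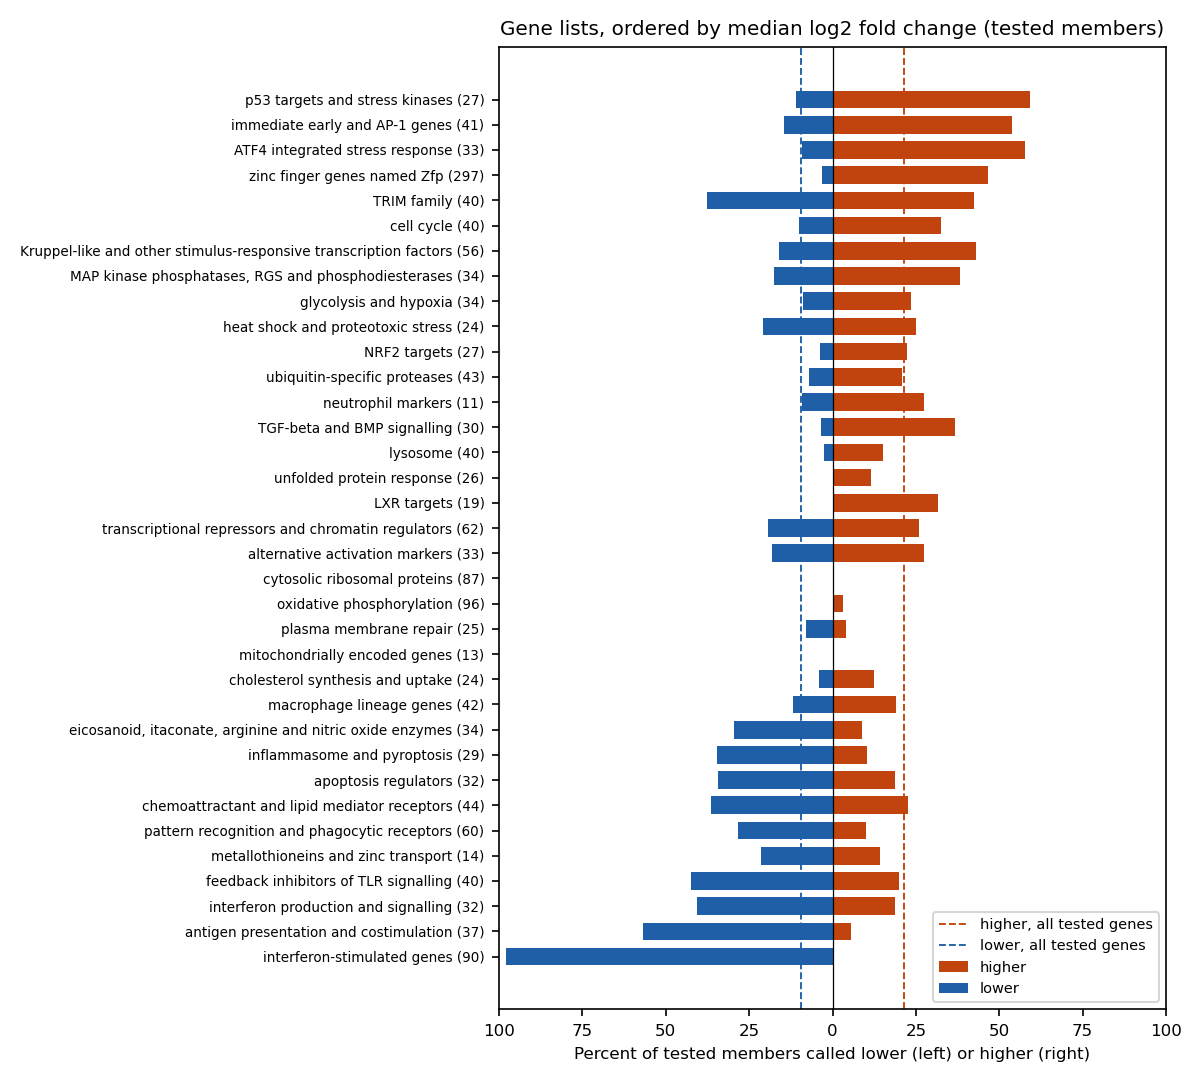
Bars give the percent of tested members of each list with at least 10 tested members that were called lower (left) or higher (right), and dashed lines give the same over all tested genes, 9.44% and 21.5%. The ISGs reach 97.8% lower at the bottom, and the p53 and stress kinase list 59.3% higher at the top.

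Immediate early genes, whose transcription needs no new protein, rose in number. Of 41 tested genes 22 rose (53.7%, against 21.5%) and 6 fell, with a median of 0.73 against 0.22, and 20 or 19 were higher and 11 or 10 lower after median-ratio or quantile scaling. Fos, a subunit of the AP-1 dimer, read 4.45, 4.80 and 4.42 FPKM with LPS and 58.1, 59.2 and 48.9 FPKM with peptide. That was an 11.5-fold change (3.53 ± 0.089 (SE) on the log2 scale, limma adjusted p 8.1e-13), above the controls at 15.1, 15.0 and 15.2 FPKM. Its partner Jun rose from 6.81 to 54.0 FPKM, and Fosl1 from 0.103 to 2.36 FPKM. The growth regulator Myc rose from 1.77 to 14.4 FPKM, with 1.74, 1.64 and 1.93 FPKM in the LPS libraries and 14.5, 14.5 and 14.4 FPKM in the peptide libraries. Nr4a1, an orphan nuclear receptor, rose from 0.855 to 6.42 FPKM, and the zinc finger factor Egr2 from 6.70 to 31.3 FPKM. The fallen members were Batf2, Batf, Csrnp1, Ppp1r15a, Gadd45b and Rhob. Batf2, an AP-1 factor that interferon also induces, fell from 13.97 to 1.13 FPKM, and Gadd45b, which NF-κB induces, from 275 to 126 FPKM, while its paralog Gadd45a rose from 3.82 to 26.4 FPKM.

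Of 56 tested Kruppel-like and other stimulus-responsive transcription factors 24 rose (42.9%, against 21.5%) and 9 fell (16.1%, against 9.44%). Klf4 rose from 1.149 to 12.8 FPKM and Klf10 from 4.21 to 18.6 FPKM, while Klf7 and Klf3 fell from 17.4 to 4.38 FPKM and 34.6 to 12.2 FPKM. Bhlhe40, a repressor tied to the circadian clock and to macrophage proliferation, read 4.78, 5.13 and 4.36 FPKM with LPS and 61.1, 65.5 and 64.3 FPKM with peptide, a log2 fold change of 3.68 ± 0.063 (SE) (limma adjusted p 2.4e-14), where the controls were at 22, 21.5 and 22.8 FPKM. The clock genes Per1 and Per2 rose from 0.348 to 5.72 FPKM and 0.0877 to 2.18 FPKM. Foxo3, a factor that Akt keeps out of the nucleus, rose from 1.04 to 8.72 FPKM, and Tsc22d3, the glucocorticoid-induced leucine zipper GILZ, from 4.88 to 23.1 FPKM. Nfil3 fell from 10.6 to 2.91 FPKM.

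Most macrophage lineage genes were not called. Of 42 tested genes 8 rose and 5 fell, shares of 19% and 11.9% that were near the 21.5% and 9.44% of all tested genes, with a median of 0.07. The called members included regulators. Cebpa, a myeloid transcription factor, read 6.32, 5.62 and 5.86 FPKM with LPS and 34.4, 32.7 and 36.0 FPKM with peptide, a log2 fold change of 2.48 ± 0.082 (SE) (limma adjusted p 1.2e-11). Within the MiT family of lysosomal and melanocyte factors, Tfeb rose from 3.38 to 17.3 FPKM and Tfe3 from 28.9 to 44.2 FPKM, while Tfec fell from 152 to 24.0 FPKM and Mitf from 49.9 to 17.9 FPKM. Median-ratio scaling turned the list's median to -0.17, with 7 members higher and 10 lower.

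Among 33 tested markers of alternative activation 9 rose (27.3%, against 21.5%) and 6 fell (18.2%, against 9.44%), with a median of 0.17 against 0.22. Gdf15, a stress-induced cytokine, read 9.80, 8.28 and 9.54 FPKM with LPS and 196, 172 and 140.3 FPKM with peptide, a log2 fold change of 4.16 ± 0.12 (SE) (limma adjusted p 4.4e-12), well above the controls at 28.4, 27.9 and 27.0 FPKM. Pparg, the nuclear receptor of lipid uptake genes, rose from 4.06 to 18.9 FPKM, and the angiogenic factor Vegfa from 1.78 to 18.4 FPKM. The chemokines Ccl17, Ccl22 and Ccl24 fell, Ccl22 from 77.3 to 10.5 FPKM, and the anti-inflammatory cytokine Il10 fell from 8.39 to 0.793 FPKM.

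Genes of the integrated stress response, in which phosphorylation of eIF2α favours translation of ATF4, rose in number. Of 33 tested genes 19 rose (57.6%, against 21.5%) and 3 fell, with a median of 0.72, and 15 or 17 were higher after median-ratio or quantile scaling. Atf4 itself read 43.6, 42.8 and 43.0 FPKM with LPS and 109.6, 113 and 110.5 FPKM with peptide, without overlap. Ddit3, which encodes CHOP, rose from 5.91 to 23.0 FPKM (1.92 ± 0.061 (SE) on the log2 scale, limma adjusted p 8.1e-12). The targets Trib3, a pseudokinase that binds Akt, and Chac1, a glutathione-degrading enzyme, rose from 0.484 to 3.53 FPKM and 0.0900 to 1.77 FPKM. Sesn2, a sensor of leucine that restrains mTORC1, rose from 1.03 to 6.22 FPKM. The amino acid synthesis and transport genes changed less, with Asns from 5.17 to 10.5 FPKM and Slc7a5 from 1.44 to 3.55 FPKM. Ppp1r15a, the phosphatase subunit that reverses eIF2α phosphorylation, fell from 91.7 to 37.8 FPKM, and Nupr1 from 94.0 to 16.9 FPKM. In the unfolded protein response list 3 of 26 tested genes rose and none fell, a share of 11.5% against 21.5%, with a median of 0.20 against 0.22, among them the sensor kinases Ern1, from 4.59 to 17.6 FPKM, and Eif2ak3, from 1.39 to 3.66 FPKM.

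Of 27 tested p53 targets and stress kinases 16 rose (59.3%, against 21.5%) and 3 fell, with a median of 0.87, and 14 or 13 were higher after rescaling. Plk3, a Polo-like kinase of stress responses, rose from 0.443 to 9.53 FPKM, Sesn1 from 5.18 to 28.0 FPKM, and Mdm2, the ubiquitin ligase of p53, from 54.8 to 139.8 FPKM. The members that fell included the most abundant one. Cdkn1a, the cyclin-dependent kinase inhibitor p21, read 860.2, 859 and 875 FPKM with LPS and 208, 207 and 195 FPKM with peptide. Its log2 fold change was -2.09 ± 0.037 (SE) (limma adjusted p 3.6e-14), opposite to most members of the list. In the cell cycle list 13 of 40 tested genes rose (32.5%, against 21.5%) and 4 fell, with 8 and 7 higher after rescaling. Its D-type cyclins moved apart, Ccnd1 from 10.5 to 32.04 FPKM and Ccnd2 from 11.6 to 0.789 FPKM.

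Of 24 tested genes of heat shock and proteotoxic stress 6 rose (25%, near the 21.5% of all tested genes) and 5 fell (20.8%, against 9.44%), with 4 higher and 5 lower after median-ratio scaling. Ubb, which encodes a chain of ubiquitin units, read 311, 321 and 318 FPKM with LPS and 808, 764 and 638 FPKM with peptide, a 2.31-fold change (1.21 ± 0.063 (SE) on the log2 scale, limma adjusted p 1.3e-09). Peptide library 1 was the highest and library 3 the lowest, and even the lowest was above every LPS value. The units are repeats, and reads from them cannot be placed with certainty. Hspa1b was among those that fell, from 21.3 to 9.09 FPKM. Of 27 tested NRF2 targets 6 rose and 1 fell, and the share of 22.2% higher and the median of 0.25 were near the 21.5% and 0.22 of all tested genes. Hmox1, heme oxygenase, read 148, 149 and 148 FPKM with LPS and 402, 407 and 379.6 FPKM with peptide, and Gclc, which limits glutathione synthesis, rose from 4.54 to 24.0 FPKM.

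Of 32 tested apoptosis regulators 11 fell (34.4%, against 9.44%) and 6 rose (18.8%, against 21.5%). The Bcl2a1 copies, survival genes induced by NF-κB, fell together, Bcl2a1b from 297 to 65.6 FPKM and Bcl2a1d from 148 to 21.3 FPKM. Their sequences are nearly the same, so the division of reads among them is uncertain. Bcl2l11, which encodes the proapoptotic BIM, fell from 67.7 to 18.1 FPKM, and Cflar, the inhibitor of caspase-8, from 167 to 52.2 FPKM. Bcl2 rose from 0.438 to 2.12 FPKM and Mcl1 from 141 to 239.7 FPKM, the call of Mcl1 being lost after median-ratio scaling at 0.52.

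Inhibitors of other signaling pathways were among the risen genes. Of 30 tested genes of TGF-β and BMP signaling 11 rose (36.7%, against 21.5%) and 1 fell, with a median of 0.22 that equalled that of all genes, and 9 were higher after either rescaling. The inhibitory SMAD genes Smad7 and Smad6 rose from 0.147 to 2.51 FPKM and 0.353 to 2.05 FPKM, and the Id genes, which block basic helix-loop-helix factors, rose as a family, Id1 from 1.14 to 9.19 FPKM, Id2 from 67.0 to 299.6 FPKM and Id3 from 17.9 to 54.3 FPKM. Of 34 tested MAP kinase phosphatases, RGS proteins and phosphodiesterases 13 rose (38.2%, against 21.5%) and 6 fell (17.6%, against 9.44%). Dusp18 rose from 0.460 to 5.78 FPKM and Spry2, an inhibitor of receptor tyrosine kinase signaling, from 0.548 to 4.20 FPKM, while Dusp2 and Rgs16 fell from 46.7 to 10.8 FPKM and 9.07 to 2.27 FPKM.

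Of 62 tested transcriptional repressors and chromatin regulators 16 rose (25.8%, near the 21.5% of all tested genes) and 12 fell (19.4%, against 9.44%). Their median of 0.19 turned to -0.04 after median-ratio scaling, with 10 higher and 15 lower. Setdb2, a histone methyltransferase that interferon induces in macrophages, fell from 17.9 to 1.82 FPKM, and Arid5a, which stabilises Il6 mRNA, from 9.58 to 1.71 FPKM. Bcl6, a repressor of inflammatory genes, rose from 3.31 to 18.1 FPKM, and the DNA methyltransferase Dnmt3a from 10.1 to 38.7 FPKM. Of 43 tested ubiquitin-specific proteases 9 rose and 3 fell, shares of 20.9% and 6.98% that were no higher than those of all tested genes, and 3 were higher and 6 lower after median-ratio scaling. Usp2 rose from 0.113 to 1.35 FPKM.

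Genes named Zfp, many of them zinc finger genes of the KRAB type, rose more often than genes overall. Of 297 tested Zfp genes 138 rose (46.5%, against 21.5%) and 9 fell, with a median of 0.55 against 0.22. Their changes were small, and after median-ratio or quantile scaling 81 or 63 were higher and 13 or 14 lower. Most had low FPKM, and the 380 in the table summed to 1114.5 to 1172.6 FPKM with peptide and 908.2 to 932.1 FPKM with LPS. At low levels more of all tested genes were higher, 33.7% at 1 to 3 FPKM and 26.7% under 1 FPKM. The Zfp genes were not compared with genes of like level. Zfp469 rose from 0.0447 to 1.52 FPKM, Zfp715 from 2.30 to 7.89 FPKM and Zfp652 from 1.25 to 4.23 FPKM, while Zfp800 and Zfp217 fell from 18.6 to 6.24 FPKM and 10.9 to 3.78 FPKM.

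**Figure D5:**
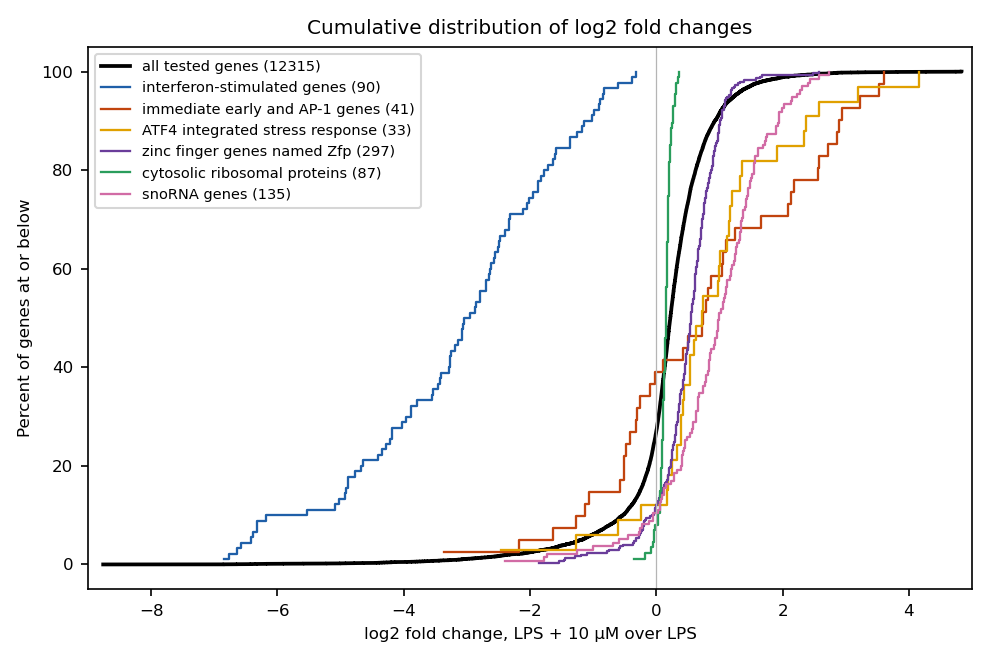
Lines give the percent of genes at or below each log2 fold change, for all tested genes and for 6 groups with their numbers in the key. The line of the 90 ISGs lies left of all others, the ribosomal protein genes rise steeply near 0.15, and the snoRNA, Zfp and stress response genes lie to the right of all tested genes.

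Genes of small nucleolar RNAs, which lie in introns of other genes and guide RNA modification, were often called higher. Of 135 tested snoRNA genes 86 were higher (63.7%, against 21.5%) and 6 lower, with a median of 0.99, and 72 or 70 were higher after rescaling. Their levels were low, with a median of 0.55 FPKM with LPS and 1.39 FPKM with peptide, and their annotated length was 28 to 246 bases. Some passed the filter of 0.5 FPKM only through groups other than LPS, which favours higher calls. Snord57, for example, was at 0.0425 FPKM with LPS and 0.643 FPKM with peptide. Of all tested genes with a mean under 1 FPKM over the 12 libraries, 26.7% were higher. In 134 of the 135 snoRNA genes the gene lay inside a tested gene of another class, 79 such genes in all. Of these 79, 23 (29.1%) were higher and 1 was lower, with a median of 0.24, and 41 of the higher snoRNA genes lay in an enclosing gene that was not called. Snord22 read 0.681, 0.452 and 0.680 FPKM with LPS and 2.25, 3.76 and 3.57 FPKM with peptide, and its host Snhg1, a noncoding RNA, read 6.29, 4.95 and 5.25 and 15.4, 16.6 and 15.7 FPKM. Gas5, another host, rose from 17.0 to 34.2 FPKM, and the translation factor Eif4a2, host of a run of 5 higher snoRNA genes, from 22.6 to 37.2 FPKM. Reads of a snoRNA and of unspliced RNA of its host cannot be told apart in these values. The libraries were made with poly(A) selection, and how much mature snoRNA they captured was not tested. By comparison 102 of 454 tested long noncoding RNA genes were higher and 63 lower, shares of 22.5% and 13.9%, and 70 were higher and 77 lower after median-ratio scaling.

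Genes of translation and respiration were seldom called. None of the 87 tested ribosomal protein genes and none of the 13 mitochondrially encoded genes was called, with medians of 0.15 and 0.09, below the 0.22 of all genes and turning to -0.09 and -0.15 after median-ratio scaling. Of 96 tested genes of oxidative phosphorylation 3 rose and none fell. In the lysosome list 6 of 40 rose, and only Ctsc, cathepsin C, fell, from 69.7 to 16.7 FPKM, while 1 was higher and 1 lower after median-ratio scaling, in which the calls of Neu1, Atp6v0d2, Atp6v1h and Atp6v1b2 were lost. In cholesterol synthesis and uptake 3 of 24 rose and 1 fell, with 1 higher and 1 lower after median-ratio scaling. Over all tested genes 21.5% rose and 9.44% fell. Among 19 tested LXR targets 6 rose (31.6%), led by Arl4c from 9.11 to 40.02 FPKM, although 4 were higher and 2 lower after either rescaling. Among 34 tested genes of glycolysis and hypoxia 8 rose (23.5%) and 3 fell (8.82%), with 4 higher and 4 lower after median-ratio scaling. Of 25 genes of plasma membrane repair, fewer were called, as 1 rose and 2 fell, including Ehd1 from 306 to 125 FPKM. Of 14 tested metallothionein and zinc transport genes 2 rose (14.3%) and 3 fell (21.4%), with Mt2 from 118 to 44.6 FPKM.

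In absolute FPKM the largest falls after Cxcl10 included chemokines and other secreted or surface proteins. Tnfaip2, a TNF-induced protein of the exocyst family, read 1454, 1405 and 1460 FPKM with LPS and 361, 356 and 336 FPKM with peptide. Sdc4, the heparan sulfate proteoglycan syndecan-4, read 1080, 1086 and 1079 FPKM with LPS and 79.7, 79.2 and 78.1 FPKM with peptide, and its 3 libraries in each group were nearly equal. Actb, β-actin, often used as a reference gene, read 2863, 3011 and 3221 FPKM with LPS and 2007, 1944 and 1962 FPKM with peptide. Its log2 fold change of -0.62 ± 0.060 (SE) (limma adjusted p 7.4e-07) was just past the fold minimum, and the call was lost after quantile normalization, at -0.49, and without LPS replicate 3, at -0.57. Among the largest gains were Plau, the urokinase that activates plasminogen, at 31.96, 33.0 and 32.8 FPKM with LPS and 259, 262 and 267 FPKM with peptide, and the membrane protein gene Emp1, from 93.5 to 447 FPKM. The lipid droplet protein gene Plin2 read 314, 314 and 323 FPKM with LPS and 528, 516 and 514 FPKM with peptide, a change of 0.71 on the log2 scale whose call, like those of Adam8 and Eif4a1, was lost after median-ratio scaling, at 0.47.

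The 3 lowest log2 fold changes of all were those of cytokine genes, a rank that depends on the added 0.25 FPKM. Without it, the peptide mean was 0.0994% of the LPS mean for Il6 and 0.148% for Il12b. Il12b, the p40 subunit shared by IL-12 and IL-23, read 294, 291 and 308 FPKM with LPS and 0.538, 0.407 and 0.378 FPKM with peptide, a 433-fold change (-8.76 ± 0.10 (SE) on the log2 scale, limma adjusted p 1.5e-15). Il6 read 56.5, 60.0 and 61.4 FPKM with LPS and 0.0742, 0.103 and 0 FPKM with peptide, 1 of the 3 peptide libraries being listed at 0. Il27, a partner of EBI3 in IL-27, read 182, 178 and 185 FPKM with LPS and 1.149, 1.21 and 1.25 FPKM with peptide. The GTPase Rnd1, which loosens actin structure, read 75.7, 74.7 and 76.3 FPKM with LPS and 0.536, 0.555 and 0.522 FPKM with peptide. In each of these genes every peptide library lay far below every LPS library. Another 8 fallen genes were listed at 0 in all 3 peptide libraries, among them Il12a, the p35 subunit of IL-12, at a mean of 2.19 FPKM with LPS, and Il19, of the IL-10 family, at 1.5 FPKM.

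The called genes of at least 10 FPKM that varied most among the peptide libraries were nearly all genes close to 0 there. Il6, Ifnb1, Cxcl9, Iigp1 and Mir155hg had coefficients of variation of 89.9%, 65.7%, 32.2%, 30.7% and 32.5%, all with means close to 0 except Mir155hg, the host of the inflammatory miRNA miR-155, at 1.5, 2.27 and 1.23 FPKM after 27.3, 29.9 and 29.96 FPKM with LPS. The exception was Erdr1, classed as a transcribed pseudogene, at 38.0, 26.9 and 39.1 FPKM with LPS and 120.3, 80.3 and 72.0 FPKM with peptide, where peptide library 1 was highest and LPS library 2 lowest.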

How the data were processed

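RNA was extracted with TRIzol and libraries were made with a poly(A) selecting TruSeq kit, named as stranded in the labels and as standard in the study's methods. Reads were aligned to mm10 with HISAT2 and assembled and quantified with StringTie by the authors. The deposited FPKM values, scaled to transcript length and mapped fragments, and the deposited TPM values, scaled to a fixed total per library, cover 23959 genes in 12 libraries. The deposited table holds no read counts, and the depth per library is unknown. In 3773 genes with 1 transcript of over 1000 bases only 17.6% to 27.3% of low products of FPKM and length lay within 0.05 of a whole number of reads, so no counts were recovered. The FPKM of the 6 libraries compared summed to 403473 to 419800, and 10144 to 10605 genes had at least 1 FPKM.

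The filter asked for 0.5 FPKM or more in 3 or more of the 12 libraries, which left 12315 genes. Values of log2(FPKM + 0.25) were fitted with limma 3.58.1 in R 4.3.3 (lmFit and eBayes with trend) over all 12 libraries, which share 1 estimate of the spread, and LPS with 10 μM cpTLR-i was compared with LPS in a two-sided contrast, with p adjusted over the 12315 genes by the Benjamini-Hochberg method. The study's methods name a count model, which FPKM values do not allow. On simulated data with normal spread on this log scale, the fit recovered most of the changes it was given. Few genes were changed there and none of low FPKM, so the scaling and low values were not tested by it. Python 3.11.15 with pandas 2.3.3 served for tables and matplotlib 3.10.9 for plots.

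Positions of genes are those of RefSeq GRCm38.p6, the build of mm10, in which 23897 gene IDs were found, and promoters are from the RefSeq table of the same build. Classes of genes are those given with the deposited values. The 41 gene lists came from general knowledge of the pathways. The comparison and the lists were chosen with earlier results of these data known. Named genes were the 12 highest and 12 lowest fold changes among called genes of at least 10 FPKM with groups that do not overlap, the 10 largest FPKM differences each way, up to 6 called and 3 most abundant members of each list, the 6 most variable called genes, and runs of 4 or more adjacent genes called alike, of which up to 6 were named. Genes outside this rule, including single members of lists named for their role, were chosen after their values were seen. The alternatives were TPM, other pseudocounts, filters, fold minimums and scalings, other forms of the limma fit, a replicate block, and each library left out in turn. A few genes that the rule named are not reported here.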

Additional observations from a re-analysis of the deposited data

How the results depend on the processing

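Of 281 named genes that were called, 247 were called under every alternative that tested them, other than the 2-fold minimum. None changed sign under any alternative run. The filter of at least 1 FPKM in 3 libraries tested only 336 of the 352 named genes. The count of higher genes moved past 1.5-fold under median-ratio scaling (1618), quantile normalization (1640), a 2-fold minimum (1039) and no fold minimum (6917), and the count of lower genes under the last 2 (751 and 2174). Of the 2649 higher genes 1618 were still called after median-ratio scaling and 1621 after quantile normalization, and of the 1163 lower genes 1163 and 1151. The median of all tested genes was -0.004 under median-ratio scaling, 0.086 under quantile normalization, 0.185 with a pseudocount of 1 and 0.046 with no filter on low values. With each library left out in turn, the counts were 2514 to 2823 higher and 1117 to 1182 lower, and the median was 0.209 to 0.239. The cause was not tested. Deviations of LPS and peptide libraries with the same replicate number correlated at 0.153, 0.008 and -0.019, and those with different numbers at -0.17 to 0.163. These values show no pairing but cannot exclude one that is small against the spread between libraries. A fit with the replicate block gave 2651 higher and 1163 lower genes, a median of 0.223 and the same call for all 352 named genes. The motif shares over the 250 bases before the start alone were 7.13% for the ISRE core and 15.7% for the NF-κB core. With 3 libraries a group, no read counts and an unknown depth, the precision of low FPKM values could not be given. Genes that did not reach 0.5 FPKM in 3 of the 12 libraries were fitted only with no filter on low values.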

Other observations

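Secreted and surface proteins outside the lists above also changed far, and the genes of this and the next paragraph were chosen after their values were seen. Edn1, the vasoconstrictor endothelin-1, read 46.0, 45.7 and 47.5 FPKM with LPS and 0.783, 0.726 and 0.600 FPKM with peptide, with a log2 fold change of -5.62 ± 0.096 (SE). Adamts4, a protease that cuts proteoglycans, read 26.1, 25.2 and 26.1 FPKM with LPS and 0.184, 0.177 and 0.120 FPKM with peptide. In both genes every peptide library was close to 0. The collagenase gene Mmp13 went from 170.0 to 23.4 FPKM and the tissue plasminogen activator gene Plat from 12.5 to 0.148 FPKM, while Plau, of the other plasminogen activator, was higher. Il15, a cytokine of NK and memory T cells, and the early activation antigen gene Cd69 went from 98.0 to 4.86 FPKM and 136 to 6.38 FPKM. Saa3, an acute phase protein, and C3, the central complement component, went from 111 to 5.88 FPKM and 112 to 16.9 FPKM. Marcksl1, an actin-binding substrate of protein kinase C, went from 546 to 51.3 FPKM.

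Among the genes that were higher, Rab7b, a small GTPase of late endosomes, read 11.8, 12.1 and 11.7 FPKM with LPS, 108, 114 and 107 FPKM with peptide and 70.3, 70.3 and 73.8 FPKM in the untreated controls. Flcn and Fnip2, which encode the partners folliculin and FNIP2 that act on Rag GTPases at the lysosome, went from 5.35 to 24.7 FPKM and 10.3 to 71.1 FPKM, and the controls had means of 31.8 and 92.7 FPKM. The growth factor genes Pdgfa and Hbegf went from 4.36 to 23.3 FPKM and 0.851 to 5.16 FPKM. Their control means were 7.02 and 0.422 FPKM, so the peptide libraries were above both other groups. Among the higher runs of adjacent genes, 7 genes from Nprl2 to Ifrd2 at chr9:107542177-107593038, which include the hyaluronidase genes Hyal1 and Hyal2, had a median log2 fold change of 0.85, and 6 genes at chr13:32802030-33040588, which include the protease inhibitor genes Serpinb1a and Serpinb9, had a median of 1.26.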
